A study of Mus musculus with 56 samples.

Results

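Transcript levels of 10 genes of the extracellular matrix were followed along the male mouse reproductive tract: Dcn, Bgn, Lum, Fmod, Ogn, Aspn, Prelp, Vcan, Hapln1 and Cnmd. They are 10 of the 53379 genes in the count table. The first 8 encode matrix proteoglycans or their close relatives and were taken as a family. Hapln1 and Cnmd were selected on these data, chosen by the fall of their counts with age in the ducts, so their age difference there is given below as a description without a test. RNA was sequenced from C57BL/6 male mice with no genetic modification and no treatment, aged 3 months (young) or 21 months (elderly). Tissue came from 7 regions: the testis, the efferent ductules, the initial segment, caput, corpus and cauda of the epididymis, and the vas deferens. Each region and age had 4 libraries, 56 in all. The libraries hold whole-tissue RNA, so fewer cells of a type and less RNA per cell cannot be told apart. By the study's methods, the tissues of an age were taken from 4 mice, each mouse giving all 7 regions. The labels do not say which libraries share a mouse, so comparisons between regions treat libraries as independent although they share animals.

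Small leucine-rich proteoglycans are secreted proteins that coat collagen fibrils and set how the fibrils assemble. Decorin (Dcn), biglycan (Bgn) and asporin (Aspn) form one class, lumican (Lum), fibromodulin (Fmod) and prolargin (Prelp) another, and osteoglycin (Ogn) belongs to yet another. Versican (Vcan) is a large chondroitin sulfate proteoglycan that binds hyaluronan, and the link protein Hapln1 stabilizes that bond. Chondromodulin (Cnmd) is a glycoprotein best known from cartilage, where it inhibits blood vessel growth. In the male tract these proteins are made mainly by the stromal cells that surround the epithelial tubes.

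Library totals ran from 11125279 to 20561967 counts. For 7 of 7 lists of region markers the summed level was highest in the region the list names, at both ages, with corpus and cauda sharing a list that was highest in the cauda. The transcript Gm42418 took 1.27% to 49.7% of the counts, and its highest share was in library 2 of the young caput. In the young cauda, library 3 stood apart: the summed CPM (counts scaled to library size) of 10 fibrillar and associated collagen genes was 11390 there, against at most 3108 in the other 3 libraries. Library 3 also had the highest collagen sum of the 4 young libraries in the other regions except the vas deferens, with 1721 against at most 1010 in the initial segment and 3720 against at most 2150 in the corpus. In the efferent ductules of elderly mice, libraries 2 and 3 held initial segment markers at summed levels of 622 and 258 CPM, against at most 4.0 CPM in the young libraries. Calls that rest on these libraries are also given without them. Without elderly libraries 2 and 3, only elderly libraries 1 and 4 of the efferent ductules remain. These had the lowest totals of the series (11442133 and 11125279 counts). Gm42418 took 22.2% and 18.5% of their counts, against at most 3.3% in the young efferent ductules.

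Several of these genes lie side by side in the genome (build GRCm38). Dcn (chr10:97479609-97518143, plus strand) and Lum (chr10:97565128-97572703, plus strand) are 47.0 kb apart with no protein-coding gene between them. Prelp (chr1:133910304-133921414, minus strand) lies 115.8 kb from Fmod (chr1:134037254-134048277, plus strand). On chromosome 13, Aspn (chr13:49544443-49567565, plus strand) and Ogn (chr13:49608046-49624501, plus strand) are separated by their relative Omd, and both lie within the gene Cenpp on the opposite strand. Hapln1 (chr13:89539796-89611652, plus strand) and Vcan (chr13:89655312-89742509, minus strand) face each other tail to tail across 43.7 kb. Bgn (chrX:73483602-73495933, plus strand) and Cnmd (chr14:79637690-79662170, minus strand) have no other member nearby. The strand setting of the authors' counting is not given in the sources used here, so reads of overlapping opposite-strand genes may be shared. Cenpp averaged 37.0 CPM in the young testis and at most 1.46 CPM in any duct, so the point concerns Aspn and Ogn in the testis. It also concerns Aspn in elderly ducts, as in the cauda, where Aspn had 1.21 CPM and Cenpp 1.46 CPM. Hapln1 overlaps the opposite-strand pseudogene Gm8546, which had 0.420 CPM in the elderly corpus, where Hapln1 had 0.0583 CPM.

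Promoter windows of 250 bases upstream of the start came from a set of RefSeq promoters (GRCm38.p6). The set used held 8 of the 10 genes, without Dcn and Lum. The windows of 3 genes are shown because the results turn on them: Vcan had the most age calls, Ogn was the only member called higher in the elderly testis, and Cnmd had 0 counts in 7 of 24 elderly duct libraries, against 5 for Hapln1. Capitals mark matches, on either strand, to TATAAA (bound by the TBP protein), CCAAT (bound by the factor NF-Y), GGGCGG (GC box), AGAACA (the repeat unit of a steroid receptor element), TGANTCA (AP-1 site) or ACAATG (SOX site). The windows are Vcan chr13:89742513-89742762 (minus strand), Ogn chr13:49607765-49608014 (plus strand) and Cnmd chr14:79662184-79662433 (minus strand), each written 5′ to 3′ along the gene.
Vcan: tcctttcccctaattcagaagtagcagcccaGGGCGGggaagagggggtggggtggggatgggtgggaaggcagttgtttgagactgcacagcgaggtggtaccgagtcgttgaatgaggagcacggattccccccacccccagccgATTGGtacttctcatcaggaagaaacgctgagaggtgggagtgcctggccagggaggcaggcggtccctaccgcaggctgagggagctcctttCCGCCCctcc
Ogn: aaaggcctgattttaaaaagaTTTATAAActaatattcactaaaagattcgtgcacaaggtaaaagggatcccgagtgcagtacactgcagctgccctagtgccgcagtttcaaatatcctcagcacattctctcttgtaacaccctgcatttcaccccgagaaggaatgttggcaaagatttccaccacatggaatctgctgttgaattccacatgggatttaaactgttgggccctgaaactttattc
Cnmd: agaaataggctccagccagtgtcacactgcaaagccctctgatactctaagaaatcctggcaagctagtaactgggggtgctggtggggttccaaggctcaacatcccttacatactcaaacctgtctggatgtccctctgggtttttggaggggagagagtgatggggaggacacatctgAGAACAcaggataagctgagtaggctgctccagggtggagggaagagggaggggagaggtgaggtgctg
The Vcan window was 62.4% G and C and held a GC box at each end and CCAAT in reverse, whereas the Ogn window was 42.0% G and C and held overlapping TATAAA matches on both strands, far from the start. The Cnmd window, at 54.0% G and C, held AGAACA once, at position −69. Over all 32851 promoter windows the median was 52.4%. TATAAA stood in 2 of the 8 member windows and in 12.4% of all windows. CCAAT stood in 3 of 8 and 33.8%, GGGCGG in 2 of 8 and 32.7%, and AGAACA in 2 of 8 and 16.1%. No member window held the AP-1 letters (6.75% of all windows) or the SOX letters (10.7%), and no motif was shared by more than 3 members.

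The strongest step in expression along the young tract was between the testis and the efferent ductules. All 8 proteoglycans were called higher in the efferent ductules. Values of Hapln1 and Cnmd between young regions are given without a test, since their young duct counts were part of what chose them. Fmod, which directs fibril assembly, had 0.744, 0.598, 1.31 and 0.353 CPM in the 4 young testis libraries and 94.8, 98.4, 103 and 93.8 CPM in the efferent ductules. The groups were far apart, with a log2 difference of 7.04 ± 0.21 (SE; edgeR quasi-likelihood test, adjusted p = 3.4e-22). Lum, which organizes collagen in cornea and skin, had 0.859, 0.761, 0.927 and 0.823 CPM in the testis and 56.6, 44.6, 69.8 and 54.6 CPM in the efferent ductules (log2 6.09 ± 0.51). The other 6 proteoglycans were higher by 2.23 (Aspn) to 4.12 (Prelp) on the log2 scale. Cnmd went the other way, from 1.31 to 2.98 CPM in the testis to 0.527 to 0.796 CPM (log2 −1.55 ± 0.35), and the 2 ranges did not overlap. In this contrast 28.8% of all 34475 genes tested were called higher and 35.6% lower, at an adjusted p under 0.05 and at least 2-fold.

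From the efferent ductules to the initial segment, 4 proteoglycans were lower and 0 higher, where 17.4% of all genes were lower and 10.2% higher. Lum dropped from 44.6 to 69.8 CPM to 4.97 to 6.74 CPM (log2 −3.17 ± 0.41) and Prelp, a heparin-binding anchor of basement membranes, from 138 to 172 CPM to 25 to 29.2 CPM (log2 −2.44 ± 0.16). Dcn, the most abundant member, fell by 1.51 ± 0.14 and Bgn by 1.01 ± 0.17 on the log2 scale. Neither Vcan (log2 0.37 ± 0.18, adjusted p = 0.0942) nor Ogn (−0.30 ± 0.24, adjusted p = 0.34) passed the test. The Bgn call was lost without the libraries numbered 2 (log2 −0.93, under 2-fold), and Fmod was lower by less than 2-fold (−0.49, adjusted p = 0.00644). Hapln1 went from 4 to 7 counts a library in the efferent ductules to 7 to 25 (log2 1.55, and 0.97 without the libraries numbered 3).

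No proteoglycan was called between the initial segment and the caput, where 8.87% of all genes were higher and 6.22% lower. By an unadjusted p under 0.05 in edgeR, 1 (Prelp) was higher and 0 lower, against 19.8% and 16.8% of all genes. DESeq2 called 0, against 9.12% of all genes higher and 6.88% lower.

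In the corpus, Dcn was higher than in the caput and 0 of 8 proteoglycans were lower, where 9% of all genes were higher and 10.5% lower. Dcn had 141, 176, 255 and 207 CPM in the caput and 425, 409, 540 and 501 CPM in the corpus (log2 1.17 ± 0.14, adjusted p = 4.77e-08). Cnmd went from 0.438 to 1.2 CPM to 1.94 to 3.21 CPM (log2 1.56 ± 0.35), its highest level in any young region, while Hapln1 had 1 or 2 counts a library in the corpus (log2 −2.73 ± 0.62). All 3 pairs of groups were without overlap. Vcan was lower by less than 2-fold (log2 −0.74 ± 0.18, adjusted p = 0.00148). Lum, at a log2 difference of 1.05 ± 0.41, just missed the call (adjusted p = 0.0505), and passed with DESeq2, DESeq2 size factors, either other filter or the replicate block (adjusted p 0.0181 to 0.0447), as it did without library 3 of the young cauda (8.05e-05).

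In the cauda, Bgn and Lum were called higher than in the corpus and 0 proteoglycans lower, where 7.03% of all genes were higher and 5.24% lower. Both calls rested on library 3 of the young cauda. Lum had 19.3, 13.2, 86.5 and 15.1 CPM in the cauda and 8.55, 9.07, 19.1 and 10.8 CPM in the corpus, so that a single library gave the distance. Without that library the log2 difference of Lum went from 1.49 to 0.33 (adjusted p = 0.281), that of Bgn from 1.01 to 0.67 (under 2-fold). The log2 value of Hapln1 went from 1.89 to 1.15. Macrophage markers in library 3 summed to 1440 CPM against at most 329 CPM in the other young cauda libraries, and their part in the result was not tested.

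No proteoglycan was called by edgeR between the cauda and the vas deferens, where 7.34% of all genes were higher and 13.9% lower. Prelp (log2 0.91 ± 0.15, adjusted p = 1.04e-05) and Vcan (−0.88 ± 0.18, adjusted p = 0.000184) passed the p but stayed under 2-fold. Unadjusted p-values under 0.05 numbered 2 higher and 2 lower, against 18% and 25.5% of all genes. DESeq2 called 0, against 7.75% of all genes higher and 14.2% lower. Without library 3 of the young cauda, Lum (log2 1.38) and Aspn (1.27) were called higher in the vas deferens.

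**Figure D1:**
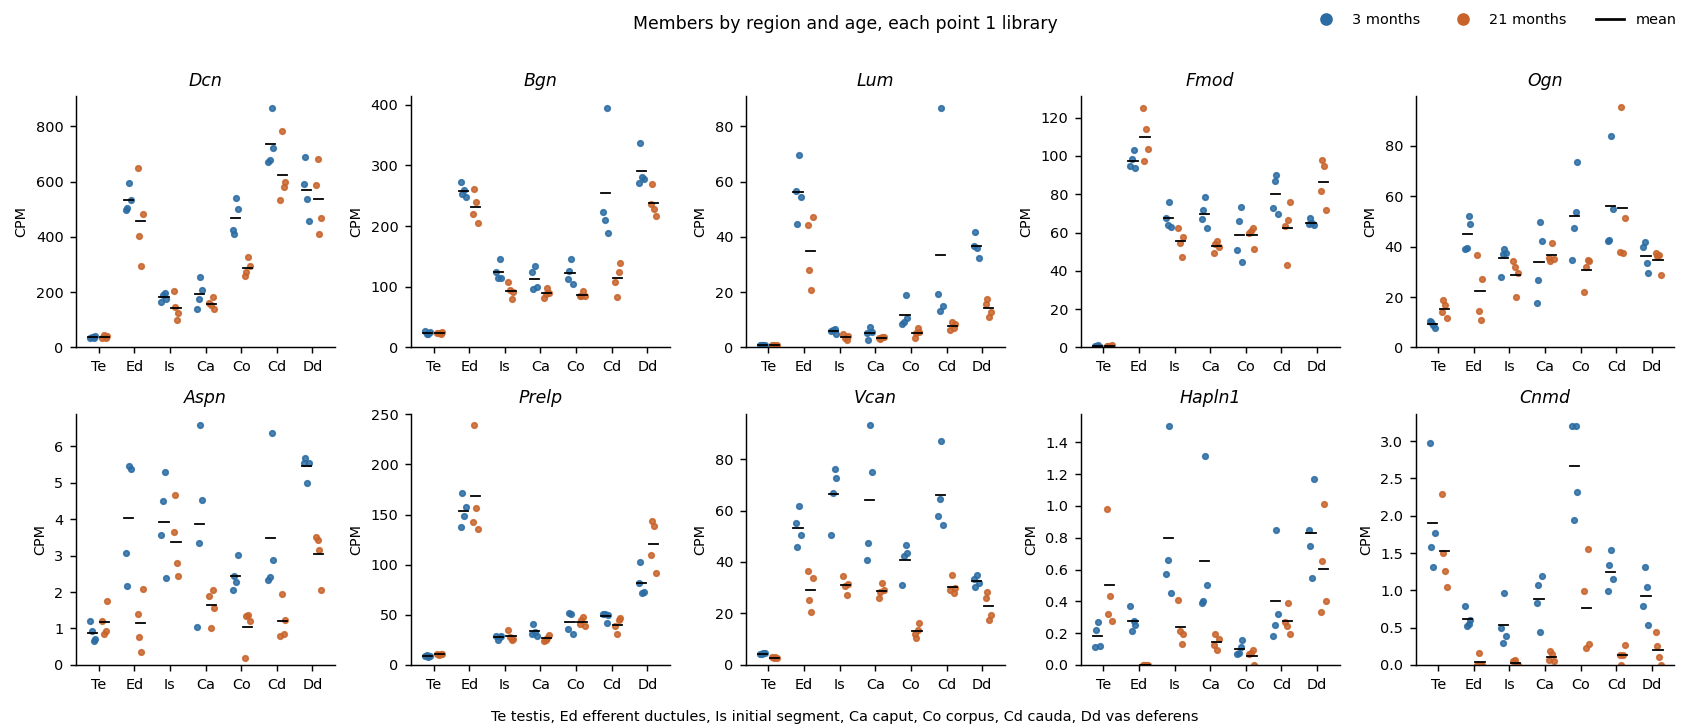
Each panel shows the CPM (linear axis from 0, with its own scale) of a member in every library, by region from the testis (left) to the vas deferens (right). Blue points are 3-month and orange points 21-month libraries, and black bars are group means of 4 libraries. At 3 months the 8 proteoglycans are lowest in the testis, and Lum in the young cauda has a library at 86.5 CPM above the other 3 at 13.2 to 19.3 CPM.

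Each member had its own order of regions. At 3 months, group means of Dcn ran from 36.1 ± 3.9 CPM in the testis to 734 ± 91 CPM in the cauda (SD, n = 4), a 20.3-fold range. Bgn was highest in the vas deferens (291 ± 31 CPM), and its libraries there overlapped those of the efferent ductules and the cauda, the next in order. The overlap with the cauda came from library 3 of the young cauda (395 CPM), without which the cauda stood at 207.5 ± 17.4 CPM (n = 3). Lum, Fmod and Prelp, the members of the lumican class, were each highest in the efferent ductules, where Prelp averaged 154 CPM against 27.6 CPM in the initial segment, its lowest duct. Vcan was highest in the initial segment (66.5 CPM), with overlapping libraries and nearly the same means in the cauda (65.95 CPM) and caput (64.1 CPM). It was lowest among the ducts in the vas deferens (32.6 CPM). Ogn and Fmod varied least: their means in the 6 ducts lay within 1.64-fold (Ogn, 34.1 to 55.9 CPM) and 1.66-fold (Fmod). Among the proteoglycans, neighbouring ducts in the order overlapped throughout for Ogn, Aspn and Vcan. Aspn, a low-expressed relative of decorin, ranged from 0.872 CPM in the testis to 5.45 CPM in the vas deferens.

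To compare the genes with each other, CPM was divided by the summed exon length of each gene. Per kilobase, Dcn made up the largest share of the 10-gene sum in every region at both ages, from 30.0 ± 3.6% in the elderly initial segment to 58.2 ± 3.4% in the elderly cauda (SD, n = 4). In young mice the same regions marked the ends, at 30.3 ± 1.3% and 51.6 ± 4.5%. In the young testis the next were Bgn (21.5%), Ogn (19.3%) and Prelp (13.6%), and Cnmd took 5.48%, its highest share of any young region. In the young efferent ductules Prelp (16.9%) matched Bgn (16.9%), and Lum reached 9.11%. Fmod took 19.9% in the initial segment and 20.6% in caput tissue but only 1.24% in the testis. Hapln1 stayed at or below 0.167% in every young region. The 10-gene sum was 18.7 ± 1.1 CPM per kilobase in the young testis and between 103 ± 8 (initial segment) and 252 ± 14 (efferent ductules) in the young ducts. At 21 months it was 21.9 ± 1.4 in the testis and between 81.1 ± 15.2 (initial segment) and 222 ± 32 (efferent ductules) in the ducts, with 109 ± 10 in the corpus against 161 ± 21 at 3 months.

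**Figure D2:**
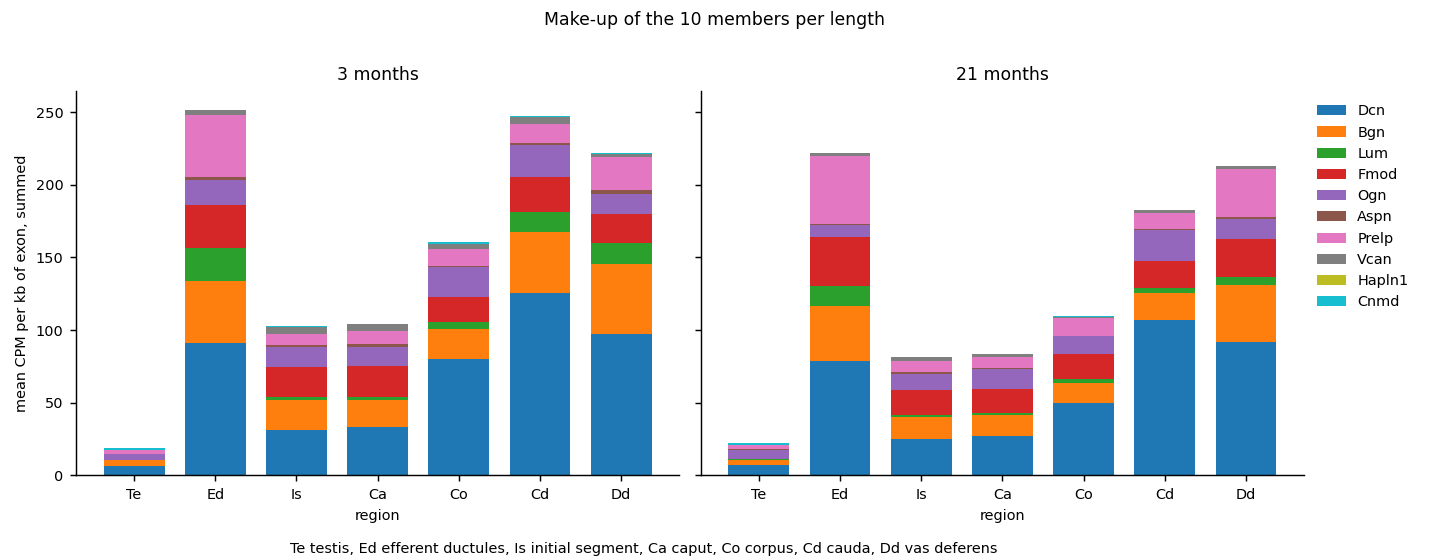
Stacked bars give the mean CPM per kilobase of exon of each member, summed over the 10 genes, by region at 3 months (left) and 21 months (right), as means of 4 libraries. Dcn is the largest part of each bar, and the young bars run from 18.7 (testis) to 252 (efferent ductules).

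Between 3 and 21 months more proteoglycan comparisons fell than rose, unevenly between genes and regions. Of 56 comparisons (8 genes in 7 regions), 14 fell and 3 rose at an adjusted p under 0.05. Over the 7 regions together 2.96% of all gene comparisons fell and 3.31% rose. Of the log2 values, 44 of 56 were negative. The 56 comparisons are not independent, since the same mice gave all 7 regions. In the corpus 5 of 8 fell (Dcn, Bgn, Lum, Ogn and Vcan) and 0 rose, where 1.47% of all genes fell and 1.5% rose. In the vas deferens 4 fell (Bgn, Lum, Aspn and Vcan) and 2 rose (Fmod and Prelp), where 8.47% of all genes fell and 11.4% rose. In the caput 3 fell (Bgn, Fmod and Vcan) and 0 rose, against 5.05% and 3.09% of all genes.

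Vcan alone fell in the efferent ductules (2.98% of all genes fell and 4% rose). It was also the only member to fall in the initial segment (3.01% and 3.35%). In the testis Ogn rose and none fell (0.21% of all genes fell and 0.353% rose). In the cauda 0 of 8 were called in either direction by edgeR, where 0.0583% of all genes fell and 0.07% rose. By an unadjusted p under 0.05, 4 (Bgn, Lum, Aspn and Vcan) were lower and 0 higher, against 5.95% and 4.56% of all genes. DESeq2 called 3 (Bgn, Aspn and Vcan) lower and 0 higher, against 1.31% and 0.846%, and gave no p for Lum. The median log2 difference of the 8 genes was −0.74 in the corpus and −0.74 in the cauda, −0.44 in the caput, −0.36 in the efferent ductules, −0.25 in the vas deferens, −0.17 in the initial segment and 0.16 in the testis. It was −0.56 in the cauda without young library 3, and −0.14 in the efferent ductules without elderly libraries 2 and 3. The median of all genes lay within 0.05 of 0 in every region. The young libraries numbered 3 were the highest of 4 in 6 of 7 regions for Lum, Fmod and Vcan and in 5 for Dcn, which the genome-wide correlation of their deviations did not show (mean 0.0267 over pairs of regions). With them left out of every region, 7 comparisons fell and 1 rose (1.68% and 2.04% of all gene comparisons), 6 and 1 of them also called with all libraries. The labels do not say whether these libraries came from the same mouse. Among the 17 calls, 6 held whichever of the 8 libraries of the region was left out.

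**Figure D3:**
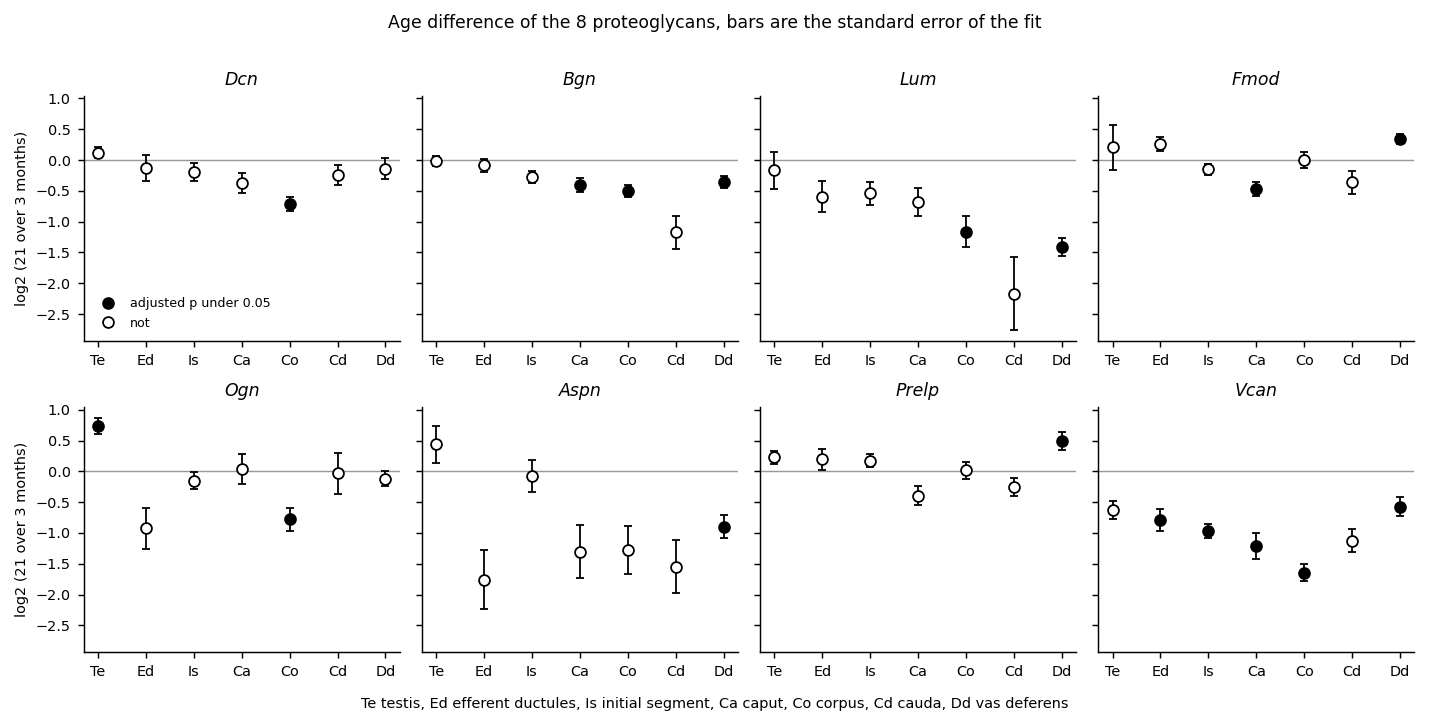
Points give the log2 difference between 21 and 3 months for each of the 8 proteoglycans in each region, bars are the SE of the fit, and filled points mark an adjusted p under 0.05. Vcan lies below 0 in all 7 regions (−0.58 to −1.64), while Prelp lies above 0 in 5 regions and below it in the caput and cauda.

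Vcan fell most widely, in 5 regions, and its elderly libraries lay below every young library in all 7. In the corpus it had 31.2, 42.2, 46.5 and 43.7 CPM at 3 months and 12.1, 10.5, 13.7 and 16.5 CPM at 21 months. The groups were well apart (3.10-fold lower mean, log2 −1.64 ± 0.14, adjusted p = 9.34e-06). Caput libraries had 40.9, 47.5, 93.1 and 74.8 CPM, then 26.1, 28.3, 31.9 and 28.9 CPM (log2 −1.21 ± 0.21, adjusted p = 0.00533). Initial segment libraries had 50.6, 66.8, 76.0 and 72.7 CPM, then 34.7, 30.7, 27.0 and 31.3 CPM (log2 −0.97 ± 0.11, adjusted p = 0.00023). These 3 calls held whichever library was left out.

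Vcan calls in the other regions were less firm. In the efferent ductules the levels went from 55.1, 45.7, 61.8 and 50.4 CPM to 36.3, 25.2, 20.6 and 33.8 CPM (log2 −0.79 ± 0.18, adjusted p = 0.0307). That call was lost without any one of the young libraries or elderly library 2 (adjusted p 0.0579 to 0.0979). Without elderly libraries 2 and 3, which carried initial segment markers, the difference was −0.45 on the log2 scale (adjusted p = 0.00511). Levels in the vas deferens went from 33.2, 30.4, 34.8 and 32.0 CPM to 25.9, 28.1, 17.6 and 19.2 CPM (log2 −0.58 ± 0.15, adjusted p = 0.0244), and the call was lost without young library 1, 3 or 4 (adjusted p 0.0613 to 0.0780). In the testis, where Vcan is low (4.29 to 4.53 CPM, then 2.69 to 3.11 CPM), the log2 value was −0.62 ± 0.15 (adjusted p = 0.0537). In the cauda it was −1.12 ± 0.19 (adjusted p = 0.0559), and −0.92 with an adjusted p of 0.0217 without library 3 of the young mice. The antisense transcript Gm4117, which overlaps Vcan, averaged 1.2 to 10.4 CPM in the 14 groups.

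Lum fell in the corpus and the vas deferens. Vas deferens libraries had 36.6, 41.6, 35.8 and 32.3 CPM at 3 months and 15.6, 17.4, 11.2 and 12.7 CPM at 21 months. No elderly library came near the young ones (2.57-fold lower, log2 −1.41 ± 0.15, adjusted p = 0.000387), and the call held without any single library. In the corpus it had 8.55, 9.07, 19.1 and 10.8 CPM, then 3.32, 5.27, 7.13 and 5.75 CPM (log2 −1.16 ± 0.26, adjusted p = 0.0187), a call lost without young library 3 or elderly library 1, 2 or 4 (adjusted p 0.0564 to 0.0914). In the cauda the elderly libraries had 6.15, 9.30, 6.98 and 8.49 CPM, below all 4 young libraries listed above. The log2 value of −2.17 ± 0.59 did not pass (adjusted p = 0.199), and it was −1.0 (adjusted p = 0.0764) without library 3 of the young cauda. In the caput Lum was not called (log2 −0.68, adjusted p = 0.0872) but passed without young library 1 (adjusted p = 0.0488) or 2 (0.0279).

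Bgn, which binds collagen and growth factors, fell modestly in 3 regions. In the corpus it had 113, 127, 146 and 105 CPM, then 85.5, 84.3, 93.6 and 85.5 CPM. The elderly libraries were tightly grouped below the young ones (log2 −0.50 ± 0.10, adjusted p = 0.0106), and the call was lost without young library 3 (0.0546) or elderly library 4 (0.0612). Vas deferens levels were 270, 337, 281 and 278 CPM, then 236, 270, 228 and 218 CPM (log2 −0.35 ± 0.10, adjusted p = 0.0269). In the caput it had 124, 96.0, 134 and 99.9 CPM, then 81.1, 88.1, 98.2 and 89.8 CPM, with overlap (log2 −0.40 ± 0.11, adjusted p = 0.0406). The vas deferens call was lost without any young library or elderly library 3 (adjusted p 0.0577 to 0.0705), and the caput call without young library 2 or 3 or any elderly library (0.0531 to 0.139). In the cauda the levels of 223, 211, 395 and 189 CPM gave way to 108, 83.6, 125 and 140 CPM. These groups did not overlap, and the log2 value of −1.17 ± 0.26 had an adjusted p of 0.121 (−0.83 and 0.0850 without young library 3).

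Dcn was called in the corpus only. There it had 425, 409, 540 and 501 CPM at 3 months and 257, 274, 328 and 296 CPM at 21 months. All elderly libraries were below all young ones (log2 −0.71 ± 0.11, adjusted p = 0.00248), whichever library was left out. For the vas deferens the young range of 459 to 689 CPM and the elderly range of 409 to 683 CPM were nearly the same (log2 −0.14 ± 0.17, adjusted p = 0.616). In the caput the value was −0.37 ± 0.16 (adjusted p = 0.172), which passed without young library 1 (−0.52, adjusted p = 0.00533).

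Aspn, at a few CPM, fell in the vas deferens. It had 5.55, 5.69, 5 and 5.55 CPM in young and 3.52, 3.43, 3.15 and 2.05 CPM in elderly mice (log2 −0.90 ± 0.19, adjusted p = 0.00782). The groups were separate and the call held without any single library. Levels in the efferent ductules were 3.08, 2.16, 5.47 and 5.37 CPM, then 1.40, 0.773, 0.368 and 2.09 CPM. The log2 value of −1.76 ± 0.48 missed the threshold (adjusted p = 0.0511), passed without elderly library 4 (−2.21, 0.0330), and was −1.05 (0.0749) without elderly libraries 2 and 3. In the caput the log2 value was −1.30 ± 0.43 (adjusted p = 0.0771; 0.0386 with DESeq2), and −1.66 (0.00119) without young library 1.

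Ogn moved in opposite directions. In the testis it had 10.4, 10.1, 8.78 and 7.76 CPM at 3 months and 14.1, 18.9, 16.8 and 11.6 CPM at 21 months. Every elderly library was above every young one (log2 0.73 ± 0.13, adjusted p = 0.0057), with an adjusted p of 0.0504 without elderly library 2. In the same libraries Cenpp, the overlapping gene on the opposite strand, averaged 37.0 ± 2.9 and 34.1 ± 1.1 CPM (SD, n = 4). In the corpus Ogn had 34.9, 47.3, 53.6 and 73.4 CPM, then 21.9, 31.9, 34.9 and 34.3 CPM, groups that met at their edges (log2 −0.78 ± 0.19, adjusted p = 0.0370). That call was lost without young library 2, 3 or 4 or elderly library 1, 2 or 4 (adjusted p 0.0587 to 0.108). Its levels in the efferent ductules went from 38.9, 39.4, 52.2 and 49.2 CPM to 36.8, 14.5, 10.9 and 27.0 CPM (log2 −0.92 ± 0.33, adjusted p = 0.119). The lowest 2 of these were the libraries with initial segment markers, and without them the log2 value was −0.34. Leaving out elderly library 1 gave a call (−1.32, adjusted p = 0.0223).

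Fmod and Prelp, neighbours on chromosome 1, rose in the vas deferens. Fmod had 64.5, 67.5, 65.2 and 63.8 CPM in young and 81.5, 97.8, 94.9 and 71.6 CPM in elderly mice, without overlap (log2 0.34 ± 0.09, adjusted p = 0.0194). Prelp had 81.7, 103, 71.5 and 72.5 CPM, then 110, 144, 138 and 91.2 CPM, and its lowest elderly library fell inside the young range (log2 0.49 ± 0.14, adjusted p = 0.0353). Both are modest changes whose calls were sensitive to single libraries. The Fmod call was lost without young library 1, 3 or 4 (log2 0.34 to 0.35, adjusted p 0.0557 to 0.0586). The Prelp call was lost without young library 1, 3 or 4 or elderly library 1, 2 or 3 (log2 0.40 to 0.52, adjusted p 0.0508 to 0.104). With scaling to library totals alone, both missed the threshold.

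Fmod fell in the caput, from 67.0, 71.9, 78.4 and 62.3 CPM to 49.2, 54.1, 55.5 and 52.6 CPM. The groups did not overlap (log2 −0.47 ± 0.12, adjusted p = 0.0272), and the call was lost without young library 2 or 3 or any elderly library (0.0526 to 0.0989). Prelp in the caput was not called (log2 −0.39 ± 0.15, adjusted p = 0.131) and passed without young library 1 (−0.45, adjusted p = 0.0480). In the efferent ductules Fmod was called higher (log2 0.37, adjusted p = 0.00942) once elderly libraries 2 and 3 were left out, from 0.25 and 0.199 with all libraries. That fit kept only elderly libraries 1 and 4, which had low totals and high Gm42418 shares.

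Whether the age effect differed between regions was tested in a fit of all 56 libraries, which treats the regions of a mouse as independent. The test across the 7 regions called 6 of 8 proteoglycans, where 20.2% of all 36977 genes were called: Bgn (adjusted p = 0.00152), Ogn (0.0125), Fmod (0.0142), Vcan (0.0195), Prelp (0.0259) and Aspn (0.0352). Lum (0.0659) and Dcn (0.231) were not called. Without the replicates numbered 1, 2, 3 or 4 in every region, 1 to 4 of the 8 were called, Bgn each time. The share of all genes called was counted only for the fit of all 56 libraries. Without library 3 of the young cauda 6 were called, whereas leaving out library 2 of the young caput brought Prelp to 0.0634 and Lum to 0.0492. Without elderly libraries 2 and 3 of the efferent ductules, Aspn came to 0.0672 and Lum to 0.0263. The contrast of the testis with the mean of the other 6 regions called 0 of 8 by edgeR (0.0649% of all genes), with an unadjusted p under 0.05 for 4 (Dcn, Bgn, Ogn and Aspn), against 5.54% of all genes.

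The collagens that these proteoglycans bind fell in more of their comparisons. Of 70 comparisons over 10 collagen genes, 47 fell and 0 rose, where over the 7 regions together 2.96% of all gene comparisons fell and 3.31% rose. They were 10 of 10 in the corpus, 9 in the initial segment, 9 in the vas deferens, 8 in the efferent ductules, 8 in the caput, 3 in the testis and 0 in the cauda. The list's median log2 difference ran from −0.39 in the testis to −1.98 in the cauda, where Col6a3 came closest to a call (adjusted p = 0.0559). Without library 3 of the young cauda the median there was −1.25, and 5 of 10 collagens were called lower, where 0.139% of all genes fell and 0.207% rose. In the efferent ductules without elderly libraries 2 and 3 the collagen median went from −0.78 to −1.0, and 8 of 10 were again called lower. Col1a1 and Col1a2, the chains of type I collagen, and Col3a1 fell in 6 regions, and in the cauda as well once young library 3 was left out (log2 −2.31, −1.68 and −1.79). Col5a2, a fibril regulator, fell in 5 regions. Col1a1 in the vas deferens went from 423 ± 133 to 140 ± 25 CPM (SD, n = 4; log2 −1.67 ± 0.22, adjusted p = 0.000976). Col3a1 fell there by 1.75 ± 0.15 on the log2 scale, in the same libraries in which Fmod and Prelp rose. In the caput the same 2 collagens fell by 2.19 and 1.93. Summed over the 10 genes, collagen levels in the vas deferens were 2344 to 3305 CPM in young and 1168 to 1534 CPM in elderly libraries, without overlap.

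**Figure D4:**
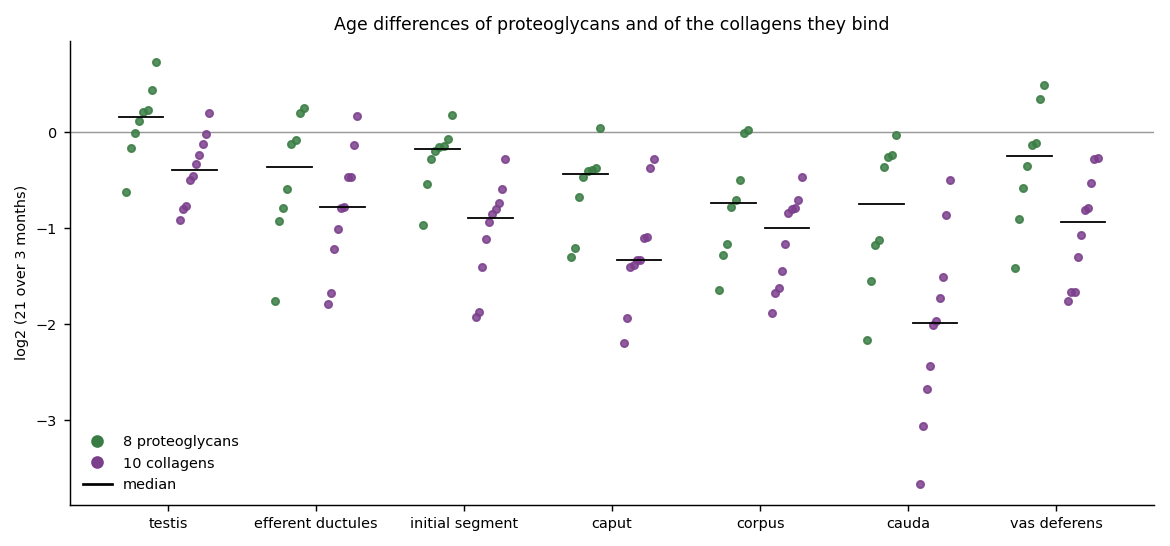
Each point is the log2 difference between 21 and 3 months of a gene, with the 8 proteoglycans in green and the 10 collagens in purple, by region, and black bars are the medians. The collagen median is below the proteoglycan median in each region, at −1.98 against −0.74 in the cauda (−1.25 against −0.56 without young library 3, not drawn) and −0.94 against −0.25 in the vas deferens.

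Other genes of the pathway are given by their counts, to be read against the 2.96% of all gene comparisons that fell and the 3.31% that rose. Among 11 other small leucine-rich proteoglycan genes, 3 of 69 comparisons fell and 2 rose. Omd, a bone and tooth proteoglycan that neighbours Ogn, fell in the efferent ductules (log2 −1.65 ± 0.44, and −0.88 ± 0.29 with an adjusted p of 0.0409 without elderly libraries 2 and 3) and the vas deferens (−1.04 ± 0.26). Ecm2, beside Aspn, fell in the vas deferens (−1.27 ± 0.23), from 12.2 to 5.25 CPM. Podnl1, a podocan relative, rose in the corpus (1.16 ± 0.28) and the vas deferens (1.38 ± 0.34). Kera, which lies beside Lum, had 0 counts in the initial segment, caput, corpus, cauda and vas deferens.

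Among other lecticans, link proteins and hyaluronan genes, 3 of 92 comparisons fell and 3 rose. Has2, a hyaluronan synthase, fell in the corpus (log2 −1.34 ± 0.29, 2.17 to 0.871 CPM), the region in which Vcan fell most. Cemip, a hyaluronan-degrading protein, fell in the caput (−0.46, a call lost without young library 2, adjusted p = 0.0837) and the vas deferens (−0.54). Acan, the cartilage relative of versican, rose in the initial segment from 0.0329 to 0.679 CPM. In the vas deferens it went from 0.0124 ± 0.0247 to 0.187 ± 0.132 CPM (SD), just past the threshold (edgeR adjusted p = 0.0495). Both young means of Acan rest on very few counts. The link protein Hapln4 rose in the vas deferens (log2 1.37 ± 0.32). Acan stood at 11.5 ± 1.6 CPM in the young corpus, far above its other ducts.

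Enzymes that build glycosaminoglycan chains showed 5 falls and 3 rises in 178 comparisons. In the vas deferens Chst12, a chondroitin sulfotransferase, rose (log2 0.74 ± 0.11) and so did the keratan sulfate enzyme B3gnt7 (0.42 ± 0.13), while Dsel, a dermatan sulfate epimerase relative, fell (−0.68 ± 0.10). Chpf, a chondroitin polymerizing factor, fell in the initial segment (−0.63 ± 0.15). Of the versican and aggrecan cleaving proteases, 5 of 49 comparisons fell and 2 rose. Adamts9 fell in the initial segment (−0.41) and caput (−0.45), Adamts15 in the former (−0.46) and Adamts4 in the latter (−1.02, lost without young library 2, adjusted p = 0.0517). Adamts8 rose in the efferent ductules (1.01, and 0.97 without elderly libraries 2 and 3).

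Heparan sulfate and cell surface proteoglycans gave 6 falls and 3 rises in 111 comparisons. Gpc3, a glypican, fell in the corpus (log2 −0.56) and vas deferens (−0.57), and Gpc6 rose in the initial segment (0.51) and fell in the vas deferens (−0.39). Hspg2 (perlecan, −0.57) and Cspg4 (the pericyte proteoglycan NG2, −0.54) fell in the caput.

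The counts of these lists moved with the libraries that stand apart. Without elderly libraries 2 and 3 of the efferent ductules, 13.7% of all genes fell there and 13.4% rose. That setting kept only elderly libraries 1 and 4, which had low totals and high Gm42418 shares. Without library 2 of the young caput 3.63% fell and 2.29% rose in that region. Leaving out these libraries and library 3 of the young cauda, each in its own region, chain synthesis enzymes gave 11 falls and 4 rises. Heparan sulfate and cell surface proteoglycans gave 11 and 7, among them falls of Hspg2 (log2 −0.94 ± 0.08) and Cspg4 (−0.63 ± 0.09) in the efferent ductules. The cleaving proteases gave 7 falls and 2 rises, the lecticans, link proteins and hyaluronan genes 4 and 4, and the other small leucine-rich proteoglycans 3 and 2.

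Markers of other cells also moved with age, against the same shares over the 7 regions together and those given above for each region (8.47% of all genes fell and 11.4% rose in the vas deferens). Fibroblast markers fell in 23 of 70 comparisons and rose in 0, with 7 of 10 falling in the corpus and 7 in the vas deferens. Another 6 fell in the initial segment, 2 in the caput and 1 in the efferent ductules, and 0 in the testis and cauda. Their summed level in the corpus was 486 to 583 CPM in young and 305 to 362 CPM in elderly mice, and in the vas deferens 593 to 667 and 303 to 491 CPM. Smooth muscle markers gave 10 falls and 7 rises in 56 comparisons, among them 6 of 8 that fell in the caput and 4 of 8 that rose in the vas deferens, where Fmod and Prelp rose. T and B cell markers rose in 22 of 52 comparisons, 8 of 8 in the vas deferens (6.23 to 10.6 CPM, then 65.0 to 219 CPM), and macrophage markers in 11 of 56. Adipocyte markers fell in 4 of 42 comparisons and endothelial markers in 5 of 56, with 1 rise. Leaving out the same libraries, fibroblast markers fell in 24 comparisons and rose in 1, smooth muscle markers fell in 10 (5 of 8 in the caput) and rose in 9, T and B cell markers rose in 21, macrophage markers in 12, and adipocyte markers fell in 6. Corpus and cauda markers rose in 8 of 28 comparisons and fell in 0, among them 4 of 4 in the vas deferens, where their sum went from 599 to 759 CPM to 939 to 2824 CPM, and 2 of 4 in the efferent ductules. Germ cell markers fell in 8 of 42 comparisons and rose in 1, with 6 of 6 falling in the initial segment (30.6 to 107 CPM, then 8.09 to 23.6 CPM) and 2 of 6 in the caput. The part of these shifts in the proteoglycan results was not tested.

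Hapln1 and Cnmd are described here by their raw counts, which are low. Cnmd had 15, 10, 10 and 12 counts in the young efferent ductules and 0, 3, 0 and 0 in the elderly ones. In the initial segment it went from 7, 5, 16 and 6 to 1, 1, 0 and 0. In the cauda it went from 16, 21, 29 and 18 to 2, 0, 2 and 4. The elderly libraries lay below all young ones in 6 of 6 ducts.

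The other 3 ducts showed the same order. In the corpus, its site of highest duct expression, Cnmd went from 45, 27, 56 and 30 counts to 15, 3, 17 and 4. In the caput it went from 15, 8, 8 and 19 to 1, 3, 3 and 1, and in the vas deferens from 15, 21, 21 and 11 to 8, 5, 2 and 0. The ratio of the young to the elderly level, from summed counts scaled by library size, was smallest in the corpus, 3.70 (exact 95% interval 2.59 to 5.4), and largest in the initial segment, 16.7 (4.28 to 143) on 34 and 2 counts. For the efferent ductules it was 11.7 (3.78 to 58.9) on 47 and 3 counts. All 3 elderly counts came from library 2, which held initial segment markers. Without that library the elderly count was 0, so the ratio there could not be ranked. These intervals cover counting error only and are no test, since the fall chose the gene.

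In the testis, which the choice did not use, Cnmd had 52, 29, 24 and 30 counts in young and 42, 28, 23 and 19 in elderly mice. The ranges overlapped, and the test found no call (log2 −0.32 ± 0.27, adjusted p = 0.746).

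Hapln1 had 7, 4, 5 and 5 counts in the young efferent ductules and 0 in all 4 elderly libraries, which is at least 5.25-fold lower when the elderly group is set to the 3 counts that a count of 0 allows. In the initial segment it went from 8, 11, 25 and 7 to 7, 3, 2 and 3 counts, and in the caput from 7, 3, 24 and 8 to 2, 3, 2 and 3. In CPM these 3 ducts were without overlap.

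The other ducts overlapped for Hapln1. Counts were 16, 12, 11 and 24, then 6, 13, 18 and 7 in the vas deferens, and 1, 1, 2 and 2, then 1, 1, 1 and 0 in the corpus. In the cauda they were 3, 4, 16 and 5, then 4, 4, 6 and 3. The mean was lower in the elderly cauda only through young library 3: the log2 value went from −0.58 to 0.16 without it. In the testis Hapln1 had 2, 4, 5 and 2 counts, then 18, 6, 8 and 5. All elderly libraries were higher there, without a call (log2 1.43 ± 0.54, adjusted p = 0.313).

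**Figure D5:**
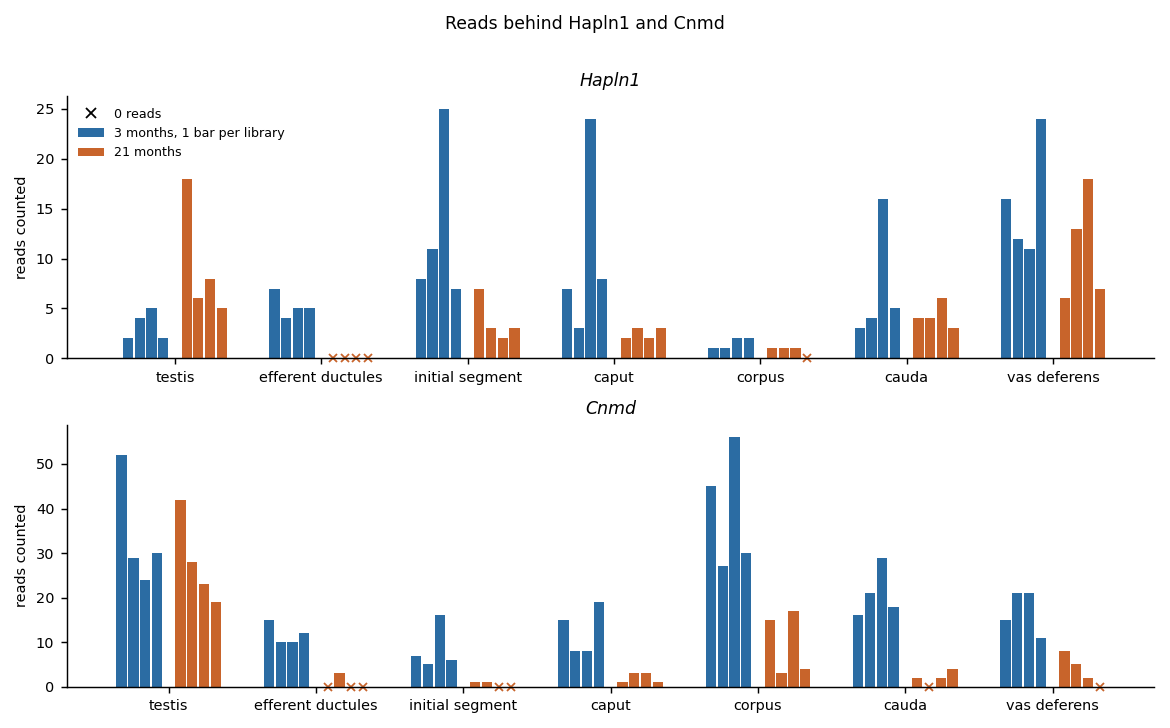
Bars give the raw counts of Hapln1 (top) and Cnmd (bottom) in each library, by region, in blue for 3 months and orange for 21 months, and crosses mark counts of 0. Counts of 0 occur only among elderly duct libraries, in 5 of 24 for Hapln1 and 7 of 24 for Cnmd, while testis counts of Cnmd overlap between the ages.

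Genes that mark cartilage differed widely in level in the ducts. Group means of Matn1, Snorc and Ucma stayed at or below 0.0547 CPM and that of Matn3 at or below 0.186 CPM in every duct. Col2a1, the main collagen of cartilage, reached at most 1.12 CPM, and the cartilage collagens Col9a1 and Col9a2 at most 0.970 and 0.688 CPM. Higher group means were those of Comp (up to 5.5 CPM), Col11a2 (1.35 to 4.5 CPM) and Acan (up to 12.6 CPM). Sox9, a cartilage regulator that epithelia also express, ranged from 6.52 to 214 CPM. Tnmd, the tendon relative of Cnmd, averaged 1.58 ± 0.83 CPM in the young corpus and 0.132 ± 0.264 CPM in the elderly corpus. Over the 12 markers, 3 of 54 comparisons fell and 3 rose with age, against 2.96% and 3.31% of all gene comparisons.

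Genes with the most similar pattern over the 56 libraries were sought among 24903 genes, by Pearson's r of log2(CPM + 1). These values are a description over libraries that share regions and ages. Dcn was nearest to Pid1 (r = 0.968), Ahnak and C1s1, and Bgn to Mmp2 (0.972), Islr and Emp1. Lum was nearest to Emp1 (0.952), Klhl13 and Zfp521, and Fmod to Sri (0.982), Myof and Add1. Prelp was nearest to Susd2 (0.968), Sh3pxd2a and Flt3l, and Vcan to Igsf10 (0.910), Wnt5a and Enpep. By r, Ogn (Mysm1, 0.891, then Samd9l and Clk1) and Aspn (Arpp19, 0.775, then Gucy1b1 and Piezo2) had looser neighbours. The low-count genes had the loosest by r, Hapln1 with Stk38 (0.665), Slc25a40 and Tmtc3, and Cnmd with Irs4 (0.728), Amotl1 and Slc22a22. Spearman's rank correlation gave another order. It was 0.718 for Fmod with Sri, against 0.837 for Ogn with Mysm1 and 0.823 for Aspn with Arpp19. For Vcan with Wnt5a it was 0.670, against 0.679 for Hapln1 with Stk38.

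Genomic neighbours differed in how alike they were. Over all 56 libraries r was 0.856 for Dcn and Lum, 0.775 for Fmod and Prelp, 0.578 for Ogn and Aspn, and 0.210 for Vcan and Hapln1. Within the 48 duct libraries the values were 0.757, 0.799, 0.448 and 0.436. Bgn and Lum, on different chromosomes, had the closest of these patterns, at 0.918 over all libraries and 0.903 in the ducts.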

How the data were processed

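Total RNA of 7 regions of the mouse male tract was sequenced (TruSeq Stranded Total RNA kit, Illumina NovaSeq) at 2 ages. The authors trimmed reads with cutadapt, aligned them to mm10 with HISAT2 and counted them per gene with HTSeq. They deposited raw counts per gene and library. Tool versions, annotation release and strand setting are not given in the sources used here. Gene symbols, positions and exon lengths came from GENCODE on GRCm38, and promoter windows from RefSeq.

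Age was tested region by region (4 against 4 libraries) with edgeR 4.0.16 in R 4.3.3: TMM scaling, genes with 10 or more counts in total, a quasi-likelihood F-test and Benjamini-Hochberg adjustment over all genes, called at an adjusted p under 0.05. Regions at 3 months were compared, each with the one before it, in a fit of 28 libraries (adjusted p under 0.05 and 2-fold). Calls between regions were made for the 8 proteoglycans, since young duct counts helped choose Hapln1 and Cnmd. The age by region interaction used all 56 libraries. SEs are the log2 value divided by the square root of F. CPM are counts scaled to a common library size with TMM factors. Fits were tested on simulated counts. DESeq2 1.42.0 and other settings were alternatives. By the study's methods, 4 mice per age each gave all 7 regions. Comparisons between regions share animals and were fitted as if independent, since the labels do not tie libraries to mice.

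The members and the gene lists were chosen with earlier results of these data known. All 10 members are named, and from each of 6 pathway lists at most 4 genes called for age in the most regions, ties by mean absolute log2 value. For each member the 3 most correlated genes with a mean of at least 1 CPM in some group are named (pseudocount 1). Kera, Col6a3, Cenpp, Gm4117, Gm8546, Gm42418 and the cartilage markers were named after their values were seen. Alternatives that leave out the libraries that stand apart were chosen after seeing the data. Counts of 0 are given the limit of 3 counts over the group. Intervals of count ratios are exact at the 95% level.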

Additional observations from a re-analysis of the deposited data

Results flagged for a closer look

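In 11 of 140 groups of 4 libraries (10 genes, 7 regions, 2 ages) the highest or lowest library was far from the rest by Dixon's test, which chance does in about 1 group in 20. The statistic is the gap to the nearest library divided by the whole range. Library 3 of the young cauda gave 4 of them: Bgn (0.834, 395 CPM against 189 to 223), Lum (0.917, 86.5 against 13.2 to 19.3), Aspn (0.868, 6.36 against 2.34 to 2.87) and, as the lowest, Prelp (0.94, 41.6 against 50.2 to 50.8). Of the others, Bgn was high in library 3 of the elderly corpus (0.878) and library 2 of the young vas deferens (0.834), Fmod in library 4 of the elderly testis (0.894) and Hapln1 in library 3 of the young caput (0.876). Ogn was low in library 4 of the elderly vas deferens (0.882) and Aspn in library 1 of the elderly corpus (0.861). Cnmd had 3 counts in library 2 of the elderly efferent ductules and none in the other 3, which by itself sets the statistic to 1.0.

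The age effect differed between the 7 regions for Bgn (adjusted p = 0.00152), Ogn (0.0125), Fmod (0.0142), Vcan (0.0195), Prelp (0.0259) and Aspn (0.0352) in the edgeR interaction test over 56 libraries. That test called 20.2% of all genes, and Bgn alone was called whichever replicate number was left out. The log2 values spanned −0.01 to −1.17 for Bgn, −0.92 to 0.73 for Ogn and −0.47 to 0.34 for Fmod. The −1.17 of Bgn was in the cauda, and it was −0.83 without young library 3. The −0.92 of Ogn was in the efferent ductules, and it was −0.34 without elderly libraries 2 and 3. No cause was tested.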

How the results depend on the processing

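Counts of the 8 proteoglycans past the threshold are given per region, without a test of why they moved: the cause was not tested, beyond what each setting's construction shows. The share of all genes called was not counted under most of these settings. A changed count is therefore no result about these genes. In the testis, 1 fell rather than 0 with library size only, with no filter and with unadjusted p and 1.5-fold; 0 rose rather than 1 with all 56 libraries in the fit, and leaving out a library gave 0 to 1. In the efferent ductules, 1 fell, against 2 with DESeq2, filterByExpr or no filter, 3 with all 56 libraries, 4 with library size only or unadjusted p and 1.5-fold, and 0 to 2 leaving out a library; 1 rose rather than 0 without 21-month libraries 2 and 3. In the initial segment 2 fell rather than 1 with no filter. In the caput 3 fell, against 4 with DESeq2 (Aspn gained), 1 with library size only and 1 to 7 leaving out a library. In the corpus 5 fell, against 2 with all 56 libraries and 2 to 5 leaving out a library. In the cauda 0 fell, against 3 with DESeq2, 1 with library size only or no filter, 4 with all 56 libraries or unadjusted p and 1.5-fold, and 0 to 1 leaving out a library. In the vas deferens 4 fell, against 2 with all 56 libraries or unadjusted p and 1.5-fold, and 2 to 4 leaving out a library, and 2 rose, against 0 with library size only or unadjusted p and 1.5-fold, 1 with all 56 libraries, and 0 to 2 leaving out a library.

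Between regions the counts take the 8 proteoglycans. Initial segment below efferent ductules was 4, against 5 with no limit on the fold and 3 to 4 leaving out a number. Corpus above caput was 1, against 2 with DESeq2, DESeq2 size factors, filterByExpr, no filter or the replicate block and without 3-month cauda replicate 3. Corpus below caput was 0, against 1 with no limit on the fold and 0 to 1 leaving out a number. Cauda above corpus was 2, against 1 with DESeq2, DESeq2 size factors, filterByExpr or the replicate block, 5 with no limit on the fold, 0 without 3-month cauda replicate 3, and 0 to 2 leaving out a number. Vas deferens above cauda was 0, against 2 with library size only or without 3-month cauda replicate 3, 1 with no limit on the fold, and 0 to 2. Vas deferens below cauda was 0, against 1 with no limit on the fold, and 0 to 1. The interaction over 7 regions called 6, against 3 with library size only and 1 to 4 leaving out a number. Hapln1 in the cauda reversed, to 0.16 on the log2 scale, without 3-month replicate 3, and ranged from −0.81 to 0.16 leaving out a library. With library size only the median of all genes was −0.38 (efferent ductules), 0.19 (caput) and −0.17 (corpus), against −0.04, −0.02 and −0.01 with TMM.

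With the replicate block, Lum in corpus above caput was gained (adjusted p = 0.0181), Bgn in cauda above corpus went under 2-fold (log2 0.98), and of the age calls only Aspn in the corpus was gained (log2 −1.35). Same-numbered libraries of different regions hardly deviated together (mean correlation 0.0301 at 3 months and 0.00251 at 21 months), so the numbers were not taken as pairs, although the young libraries numbered 3 were high in Lum, Fmod, Vcan and the collagens in 6 of 7 regions. Leaving out 1 number at 1 age in every region gave 7 to 15 falls and 1 to 3 rises, against 14 and 3. At these depths Hapln1, with at most 25 counts a library, and Cnmd, with at most 56, limit any statement on small differences.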
